A study of Homo sapiens with 2 samples.

Results

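The 10 genes described here build and control MHC class II antigen presentation: CIITA, CD74, HLA-DRA, HLA-DRB1, HLA-DQA1, HLA-DQB1, HLA-DPA1, HLA-DPB1, HLA-DMA and HLA-DMB. They were chosen by name, with earlier results of these data known, out of 20163 protein-coding genes in the annotation. CpG dinucleotides were taken within 2 kb of every annotated transcription start site (TSS) of these genes and in their bodies, on GRCh37. Of the 2729 CpG dinucleotides so listed, 2085 were covered by over 5 reads in each line and could be compared. The whole nuclear genome held 28217009 listed CpG dinucleotides, of which 24454751 met the same minimum.

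The data came from whole-genome bisulfite sequencing, in which unmethylated cytosines are converted and methylated ones are not, so that each read gives a methylated or an unmethylated call at each CpG dinucleotide it covers. Genomic DNA of 2 human acute myeloid leukemia (AML) cell lines was sequenced. OCI-AML3 is labelled DNMT3A mutant and carries a heterozygous missense change in the catalytic domain of this de novo DNA methyltransferase, whereas OCI-AML5 is labelled DNMT3A wild type. Both are established lines, which the methods say were cultured as their supplier specifies. No treatment is given in the labels, and each line gave 1 library with no replicates. The tests therefore compared 2 libraries by read sampling, and the DNMT3A genotype cannot be told apart from everything else that differs between the lines. No expression values were used here, and a cell type cannot be checked against marker genes with methylation calls alone.

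MHC class II molecules are pairs of an alpha and a beta chain that display peptides from the endosomal pathway to CD4+ T cells, and they are found mainly on dendritic cells, B cells and monocytes and on many AML blasts. Their genes share a promoter module, the S, X, X2 and Y boxes, bound by RFX, CREB and NF-Y, and all depend on CIITA, a coactivator that is itself recruited to this module and does not bind DNA. CIITA is transcribed from several alternative promoters that are used in different cell types. Methylation of CIITA and of the class II promoters is a known way for these genes to be kept silent in leukemia and in other cells.

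The reference sequence just upstream of the TSS of the canonical transcript is shown for CD74, HLA-DPB1 and HLA-DMA, 1 gene without and 2 with a difference just after the start, as GRCh37 has it, read on the strand of each gene, with each CpG dinucleotide in capitals. These stretches are chr5:149792474-149792723 (CD74, minus strand), chr6:33043517-33043766 (HLA-DPB1, plus) and chr6:32920900-32921124 (HLA-DMA, minus). The HLA-DMA stretch ends at -26 bp from the TSS, so the CpG dinucleotide at -6 bp is not in it.
CD74: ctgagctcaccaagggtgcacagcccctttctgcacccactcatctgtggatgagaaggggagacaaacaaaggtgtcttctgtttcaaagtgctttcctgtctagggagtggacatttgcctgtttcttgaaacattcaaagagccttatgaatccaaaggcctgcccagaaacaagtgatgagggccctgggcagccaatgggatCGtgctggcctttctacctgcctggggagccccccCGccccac
HLA-DPB1: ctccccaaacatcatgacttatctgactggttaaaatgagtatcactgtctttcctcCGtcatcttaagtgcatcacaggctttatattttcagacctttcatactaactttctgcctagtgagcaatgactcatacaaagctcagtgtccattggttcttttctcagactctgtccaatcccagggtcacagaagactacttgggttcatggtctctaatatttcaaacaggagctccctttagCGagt
HLA-DMA: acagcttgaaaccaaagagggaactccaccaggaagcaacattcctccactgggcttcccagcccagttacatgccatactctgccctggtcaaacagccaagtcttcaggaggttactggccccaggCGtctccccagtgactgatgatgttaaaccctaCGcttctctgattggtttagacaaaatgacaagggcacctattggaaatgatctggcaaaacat

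These promoters were poor in CpG dinucleotides. In the 250 bp before the canonical TSS, the 10 genes held between 1 and 5 of them, except for HLA-DPA1 with 21. The median was 18 over 19862 promoters of protein-coding genes. The value of HLA-DPA1 rests on its canonical start, since 3 lay in the 250 bp before the start of its RefSeq entry. The letter searches that follow used the canonical starts as well. The letters CCAAT, the core of a Y box, were searched on both strands and were found in 8 of the 10 promoters and in 34.3% of all promoters. The letters TGACG, the core of a CREB site and of the X2 box, were found on either strand in 5 of the 10 and in 25.5% of all promoters. The letters of CCAAT and TGACG can share at most 1 end base, and a match is a description and not a binding site. In HLA-DPB1, the CpG dinucleotide inside TGACG, 193 bp before the TSS, had 4 methylated calls of 62 in OCI-AML3 and 1 of 45 in OCI-AML5. Neither line was more than sparsely methylated there. The CCAAT matches of this promoter lay nearer the TSS, at -99 and -75 bp. Whether this TGACG belongs to the X2 box was not tested.

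How much of each gene could be read differed widely, and this bounds every statement that follows. The median depth per autosomal CpG dinucleotide was 28 reads in OCI-AML3 and 31 in OCI-AML5. CIITA, CD74, HLA-DRA, HLA-DPA1, HLA-DPB1, HLA-DMA and HLA-DMB had medians of 17 to 41 reads in OCI-AML3 and 21 to 39 in OCI-AML5. HLA-DRB1, the main HLA-DR beta chain and the most polymorphic of these genes, had 1 CpG dinucleotide to compare of 187, because 149 had no call in OCI-AML3 and 184 had none in OCI-AML5. HLA-DQA1 had 43 of 161, with a median of 10 reads in OCI-AML3 and 1 in OCI-AML5. HLA-DQB1 had 4 of 169, with medians of 20 and 0. HLA-DRB1 and HLA-DQB1 are therefore not compared between the lines. The part that mapping of polymorphic reads to the reference played in these depths was not tested.

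Taken over the wide windows, the class II genes followed the genome. The mean level over the CpG dinucleotides compared was 67.6% in OCI-AML3 and 75.4% in OCI-AML5 genome wide. Over those of the 10 genes it was 62.9% and 68.3%. These pooled levels weigh CIITA most. It supplied 549 of the 1131 CpG dinucleotides compared near the TSSs and 1173 of the 1901 in the bodies. In the 8 genes with at least 10 CpG dinucleotides compared, the mean level within 2 kb of the TSSs was lower in OCI-AML3 in 8 of 8, beside 88.3% of all protein-coding genes. HLA-DPA1 and HLA-DPB1 are both among the 8, overlap and share 95 of the CpG dinucleotides compared, so counts of genes include this locus more than once. The median difference was -5.54 percentage points, beside -4.83 over all genes. None of the 8 differed by more than 20 percentage points, beside 6.53% of all genes lower and 1.04% higher by that much. In the bodies 7 of 8 were lower in OCI-AML3, beside 92.3% of all genes, with a median difference of -4.81, and none passed 20 percentage points, beside 6.56% lower and 0.613% higher. The window values rest on counting every annotated start. With the canonical TSS alone, 4 of the 7 genes that could be compared were higher in OCI-AML3. These were CIITA, HLA-DPB1, HLA-DMA and HLA-DMB, by 12.0, 8.55, 2.15 and 0.445 percentage points, and the median difference was 0.445. The values of all genes above count every start, and none is given here for the canonical TSS alone. Whether these 7 genes depart from the others in that window was therefore not tested.

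The single CpG dinucleotides showed the same mixture. Fisher's exact test with Benjamini–Hochberg adjustment over the genome called 259 of the 2085 lower in OCI-AML3 and 103 higher, which is 12.4% and 4.94%, beside 14.7% and 3.86% of the genome. Within 2 kb of the TSSs 97 of 1131 were called lower and 51 higher. That is 8.58% and 4.51%, beside 12.5% and 4.12% of all such CpG dinucleotides near TSSs. In the gene bodies 243 of 1901 were called lower and 103 higher. That is 12.8% and 5.42%, beside 13.1% and 3.25% in all gene bodies. CIITA weighs most in these counts too.

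The genes were not alike in these windows. Window levels ranged from 27.9% in OCI-AML3 and 30.1% in OCI-AML5 for HLA-DMA, which helps peptides load onto class II molecules, to 86.2% and 91.5% for HLA-DQA1, the HLA-DQ alpha chain, on 17 CpG dinucleotides. Of these 17, 16 lay near its most upstream start and 1 near its canonical TSS, so the level does not describe the canonical start. Within 2 kb of the canonical TSS, 28 had more than 5 reads in OCI-AML3, with a mean of 44.7% in that line. The low level of HLA-DMA came from annotated starts far upstream of its canonical TSS, where 146 CpG dinucleotides had means of 0.178% and 0.924%. The start of BRD2, on the other strand, lies 150 bp from an HLA-DMA start there. In the gene bodies the largest differences were in HLA-DPB1, at 66.2% and 84.0%, and HLA-DRA, at 61.4% and 76.1%. When calls were pooled, the HLA-DPB1 difference shrank from -17.8 to -6.18 percentage points, smaller than those of HLA-DRA, -15.4, and HLA-DMA, -9.56. HLA-DQA1 alone of the 8 was higher in OCI-AML3, at 85.2% and 79.9% on 37 CpG dinucleotides, and this turned to -1.84 percentage points in the pooled calls. With so few of its CpG dinucleotides read, at a median depth of 1 read in OCI-AML5, these values describe a small share of HLA-DQA1.

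Closer to the start the direction turned. In the first 500 bp from the canonical TSS into the gene, a window chosen after the calls near the TSSs had been seen, 4 of the 7 genes with at least 3 CpG dinucleotides compared were higher in OCI-AML3 by more than 20 percentage points. These were CIITA, HLA-DRA, HLA-DPB1 and HLA-DMA, and none was lower by that much. Of all protein-coding genes, 4.14% were higher by more than 20 percentage points and 10.5% lower. The 7 genes had at most 19 CpG dinucleotides in this window. Among all genes with 3 to 19, 3.48% were higher by more than 20 percentage points, and 8.9% where the level in OCI-AML5 was also below 50%. By any amount, 5 of the 7 were higher, beside 30.6% of all genes and 24.1% of those with 3 to 19. Single CpG dinucleotides in this window were called higher in 20 of 74 and lower in 3 of 74, beside 4.83% and 8.3% over all protein-coding genes. Since the window was chosen after these calls were seen, the counts describe it and are no test. The calls were also clustered, with 7 of the 20 in CIITA and 6 in HLA-DPB1. The median difference over the 7 genes was 23.8 percentage points.

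**Figure D1:**
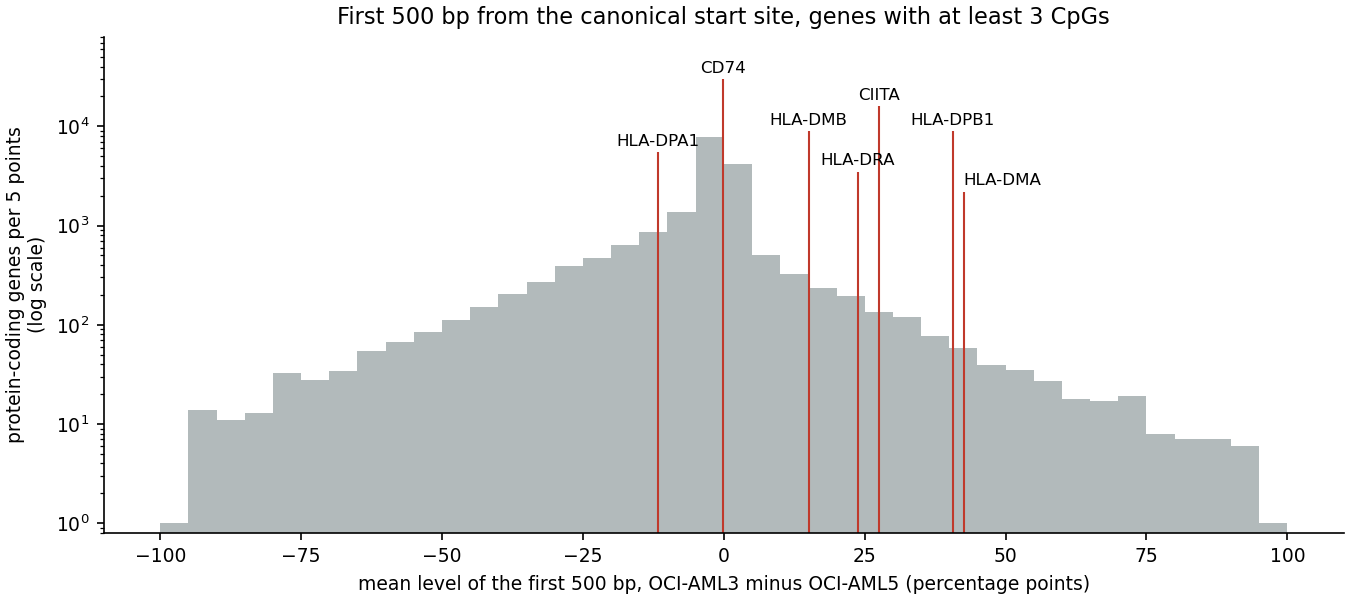
Number of protein-coding genes (log scale) by the difference in mean level of the first 500 bp, OCI-AML3 minus OCI-AML5 (percentage points), for 18571 genes with at least 3 CpG dinucleotides compared. Red lines mark the 7 genes, from -11.7 in HLA-DPA1 through -0.116 in CD74 to 42.6 in HLA-DMA.

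CIITA, the coactivator on which the others depend, was nearly free of methylation before its canonical TSS in both lines and differed just inside the gene. In the 250 bp upstream, the CpG dinucleotides at 99 and 24 bp before the TSS had 1 methylated call of 53 and 0 of 52 in OCI-AML3, and 0 of 35 and 0 of 40 in OCI-AML5. The 3 within 46 to 96 bp after the TSS had 0 methylated calls in either line. From there on the lines parted. The level at 132 bp was 28.6% in OCI-AML3 on 49 reads and 0% in OCI-AML5 on 50 reads, and at 212 bp it was 56.9% on 65 reads and 0% on 51 reads. Over the first 500 bp the mean of 12 CpG dinucleotides was 30.1% in OCI-AML3 and 2.54% in OCI-AML5, and 7 of the 12 were called higher. The share of calls was 28.4% (95% Wilson interval 24.9 to 32.2, 581 calls) and 2.15% (1.24 to 3.73, 557 calls). These intervals cover counting error only, and calls on 1 read are not independent.

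Further into CIITA stretches of both directions were found. Runs, meaning at least 3 consecutive CpG dinucleotides called in 1 direction with gaps of at most 300 bp, numbered 7 higher and 13 lower in this gene. The first run higher spanned 212 to 539 bp after the TSS, with 56.1% in OCI-AML3 and 4.35% in OCI-AML5 over 7 CpG dinucleotides. The longest run higher held 12 CpG dinucleotides 10087 to 10572 bp after the TSS, also in intron 1, at 85.9% and 20.2%. The longest run lower held 9, across intron 2 and exon 3 at 18254 to 18471 bp, at 5.72% and 95.8%. Intron 1 held all 7 runs higher and also 3 runs lower, among them 6 CpG dinucleotides 3933 to 4062 bp after the TSS, with a difference of -68.3 percentage points from 91.3% in OCI-AML5. The runs higher lay between 212 and 14843 bp after the TSS, and the runs lower reached from -11094 to 56140 bp.

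CIITA has annotated starts in 9 clusters, and they did not behave alike. Cluster 2 holds the canonical TSS. The sequences before the most upstream cluster, at chr16:10959829-10960078, and before cluster 3, at chr16:10972576-10972825, are shown because they give the contrast within the gene.
CIITA cluster 1: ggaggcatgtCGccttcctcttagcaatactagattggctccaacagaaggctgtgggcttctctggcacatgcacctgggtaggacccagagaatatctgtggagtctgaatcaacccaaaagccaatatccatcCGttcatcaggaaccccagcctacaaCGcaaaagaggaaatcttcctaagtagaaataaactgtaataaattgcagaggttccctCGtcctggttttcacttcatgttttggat
CIITA cluster 3: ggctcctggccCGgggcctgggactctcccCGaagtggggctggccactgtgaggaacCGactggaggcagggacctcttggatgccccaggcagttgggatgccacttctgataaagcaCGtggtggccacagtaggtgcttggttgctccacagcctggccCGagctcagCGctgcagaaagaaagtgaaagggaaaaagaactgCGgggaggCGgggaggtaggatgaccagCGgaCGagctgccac
Before cluster 1, the 4 CpG dinucleotides had a mean of 34.4% in OCI-AML3 and 90.7% in OCI-AML5, and 3 of them were called lower. Before cluster 3, which is richer in CpG dinucleotides, the 10 had means of 0.301% and 0.809%, and none was called. Within 500 bp of cluster 3 the mean over 51 was 4.35% and 4.37%, with 4 called lower and 1 higher, so this start was nearly free of methylation in both lines. Between clusters 2 and 3 the level in OCI-AML3 was raised, with 52.1% and 11.4% over the 7 CpG dinucleotides of the next 500 bp after the canonical window. Cluster 4, at chr16:10995416, had 49.3% and 95.4% within 500 bp, and cluster 5 had 75.8% and 90.6%. Clusters 6, 7 and 8 were highly methylated in both lines, at 88.7% to 96.0% in OCI-AML3 and 96.2% to 97.3% in OCI-AML5. Cluster 9, at 61.4% and 53.1%, lies near the start of the neighbouring gene DEXI.

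**Figure D2:**
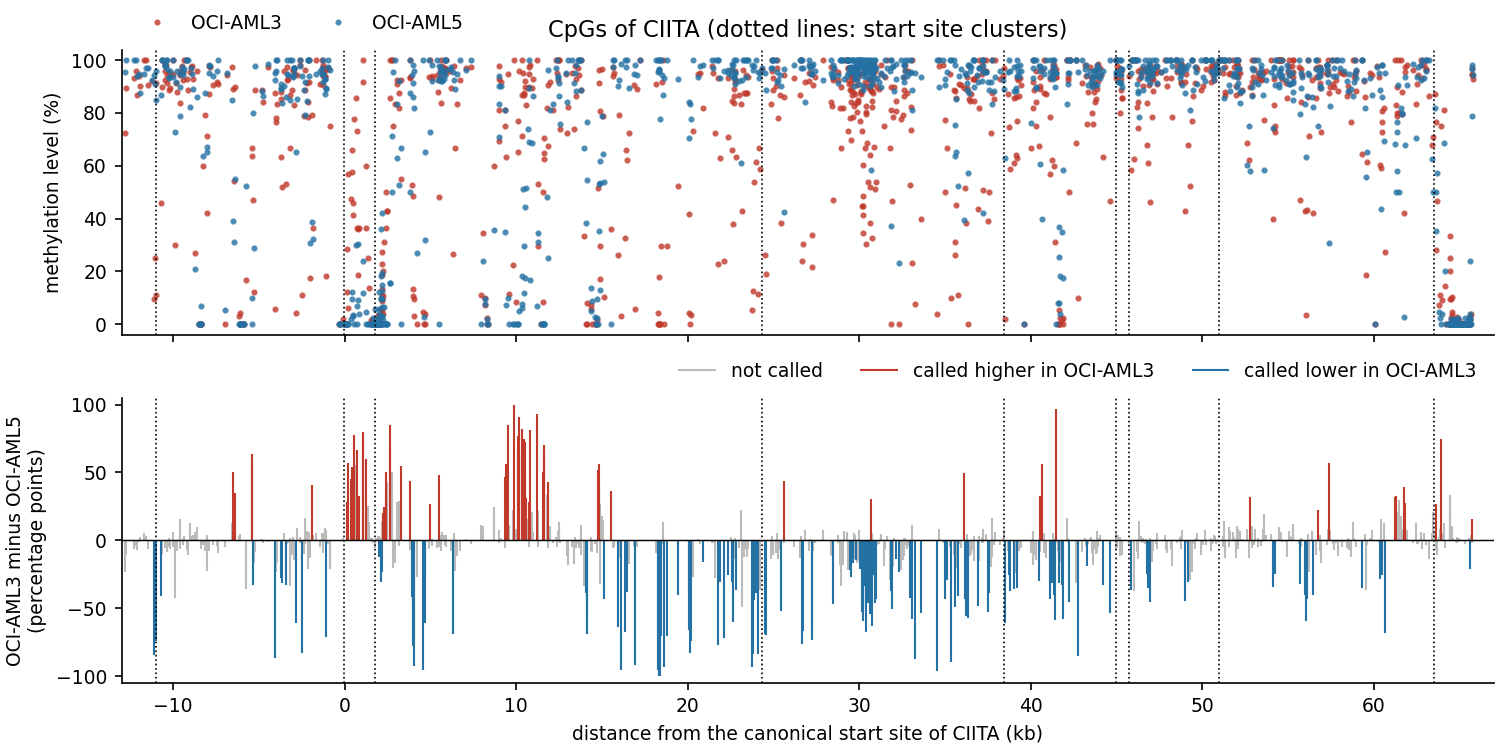
Top, methylation level (%) of each CpG dinucleotide of CIITA compared, in OCI-AML3 (red) and OCI-AML5 (blue), by distance from the canonical TSS (kb), with the start clusters as dotted lines. Bottom, the difference at each (percentage points), with calls higher in OCI-AML3 in red and lower in blue, where all 7 runs higher lie between 212 and 14843 bp.

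CD74, the invariant chain that escorts class II molecules and blocks their groove, showed no such difference at its start. Its 17 CpG dinucleotides in the first 500 bp had means of 0.155% in OCI-AML3 and 0.270% in OCI-AML5, and none was called. In the 250 bp upstream the means over 2 CpG dinucleotides were 0% and 1.43%. Further upstream, between 250 and 500 bp before the TSS, 6 CpG dinucleotides had 18.9% and 59.6%, with 2 called lower on a median of 11.5 reads in OCI-AML3. Within intron 1 the only run of this gene was higher in OCI-AML3, 1060 to 1386 bp after the TSS, with 76.3% and 5.56% over 3 CpG dinucleotides.

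HLA-DRA, whose alpha chain pairs with the HLA-DR beta chains, differed over 3 neighbouring CpG dinucleotides. Its first 500 bp had means of 24.9% in OCI-AML3 and 1.10% in OCI-AML5 over 6 CpG dinucleotides. The difference lay at 120, 174 and 184 bp after the TSS, in coding exon 1 and intron 1, with 16 methylated calls of 40, 17 of 37 and 17 of 33 in OCI-AML3. OCI-AML5 had 0 of 47, 0 of 41 and 1 of 36 there. The CpG dinucleotides at 25 and 50 bp had 1 methylated call of 28 and 1 of 32 in OCI-AML3 and 0 in OCI-AML5, and the one at 267 bp had 1 of 19 and 1 of 26. The change was thus bounded on both sides by sparsely methylated neighbours in both lines. The stretch is chr6:32407774-32407859, plus strand, with the 3 CpG dinucleotides in capitals.
HLA-DRA run: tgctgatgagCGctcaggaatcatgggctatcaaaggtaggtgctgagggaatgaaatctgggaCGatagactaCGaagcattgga
In the 250 bp upstream the means were 20.6% and 16.8% over 3 CpG dinucleotides on 7 to 23 reads, and none was called. Toward the other end of the gene the direction was the opposite, since 5 CpG dinucleotides across exons 3 and 4, 3480 to 3909 bp after the TSS, had 22.7% in OCI-AML3 and 75.8% in OCI-AML5.

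HLA-DQA1 and HLA-DQB1, the HLA-DQ alpha and beta chains, can be described near their starts in OCI-AML3 only. In HLA-DQB1 the mean was 2.49% over 5 CpG dinucleotides in the 250 bp upstream and 8.77% over 9 in the first 500 bp. The share of calls in the latter was 6.01% (Wilson interval 3.61 to 9.83, 233 calls). In HLA-DQA1 the 1 CpG dinucleotide in the 250 bp upstream had 1 methylated call of 11, and 3 in the first 500 bp had a mean of 64.8%. OCI-AML5 had no CpG dinucleotide with more than 5 reads in any of these stretches, so no comparison was possible at this depth.

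HLA-DPB1, the HLA-DP beta chain, had the most deeply read difference. The 5 CpG dinucleotides 74 to 160 bp after the TSS, of which 4 are in coding exon 1, were at 34.1%, 53.9%, 48.8%, 51.2% and 95.6% in OCI-AML3. In OCI-AML5 they were at 1.20%, 0%, 2.47%, 6.10% and 1.45%. Each rested on 68 to 91 reads in OCI-AML3 and 69 to 83 in OCI-AML5, and the adjusted P of Fisher's exact test was between 9.28e-31 and 9.85e-08. The stretch is chr6:33043831-33043938, plus strand, with its CpG dinucleotides in capitals.
HLA-DPB1 run: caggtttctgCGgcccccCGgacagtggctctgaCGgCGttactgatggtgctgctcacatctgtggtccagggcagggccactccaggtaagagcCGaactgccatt
Over the first 500 bp the means of 8 were 53.1% and 12.6%, with 6 called higher. The 2 CpG dinucleotides before the TSS, at 193 and 5 bp, had 6.45% and 8.41% in OCI-AML3 and 2.22% and 0% in OCI-AML5, and neither was called. These depths were above the autosomal medians and those of the rest of the gene, and the part this played was not tested. With CpG dinucleotides of unusual depth left out, those at 209, 245 and 482 bp remained and gave a difference of 17.4 percentage points. In the rest of the body OCI-AML3 was lower, at 46.5% and 82.7% outside the TSS windows, where its median depth was 3 reads. The longest run lower held 4 CpG dinucleotides in intron 2, 4987 to 5016 bp after the TSS, at 41.6% and 97.4%.

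HLA-DPA1, the HLA-DP alpha chain, runs on the opposite strand and overlaps HLA-DPB1, and the 2 genes share 95 of the CpG dinucleotides compared. The run higher of HLA-DPB1 lies in its intron 1, and the run lower lies -296 to -267 bp from its canonical start. Which start is used decides the value of its first 500 bp. From the canonical GENCODE start, chr6:33048487, the first 500 bp were at 83.3% in OCI-AML3 and 95.0% in OCI-AML5 over 19 CpG dinucleotides. The start of the RefSeq entry, chr6:33041426, is 7061 bp further into the gene. From there the first 500 bp were at 67.1% and 24.2% over 6 CpG dinucleotides, a difference of 43.0 percentage points with 3 called higher. The 3 in the 250 bp before it were at 36.1% and 26.0%, and none was called. With this start the gene joined CIITA, HLA-DRA, HLA-DPB1 and HLA-DMA, which made 5 of 7. That count has no share of all genes beside it, because the share given above was taken at canonical starts. The RefSeq starts were tried after the values had been seen, and HLA-DPA1 was the only gene whose value they changed.

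HLA-DMA and HLA-DMB form the HLA-DM heterodimer, which removes the invariant chain fragment from class II molecules. In HLA-DMA the 3 CpG dinucleotides in the 250 bp upstream were at 7.14%, 10.6% and 0% in OCI-AML3 and at 0%, 1.92% and 0% in OCI-AML5. The first after the TSS, at 90 bp in the coding part, was at 82.4% on 17 reads and 0% on 31 reads. Over the first 500 bp the means of 5 were 91.4% and 48.8%, with 3 called higher, so that this gene had the highest level of the 7 in OCI-AML3. Between 250 and 500 bp upstream OCI-AML3 was also higher, by 22.9 percentage points over 3 CpG dinucleotides. The 1 called there, at -359 bp, had 31 methylated calls of 39 and 7 of 30. Between 500 bp and 1 kb upstream the direction was reversed, at 61.2% and 93.0% over 6 CpG dinucleotides, with 3 called lower.

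HLA-DMB differed less. Its first 500 bp had means of 38.1% and 23.1% over 7 CpG dinucleotides, with 1 called higher, at 238 bp, where OCI-AML3 had 22 methylated calls of 32 and OCI-AML5 0 of 32. Its 250 bp upstream were partly methylated in both lines, at 40.9% and 38.8% over 3 CpG dinucleotides, and none was called. Its only run was lower in OCI-AML3, 4488 to 4731 bp after the TSS in intron 3, at 36.0% and 88.3% over 3 CpG dinucleotides.

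The plot of single CpG dinucleotides around the start shows where the lines part. In CIITA, HLA-DRA, HLA-DPB1 and HLA-DMA no CpG dinucleotide in the 250 bp upstream was called, and the first calls higher after the TSS lay at 132, 120, 74 and 90 bp. HLA-DMA also had 1 call higher further upstream, at -359 bp. Across the 10 genes the runs higher in OCI-AML3 held 2.16% of the CpG dinucleotides compared, beside 1% in the genome. The runs lower held 3.41%, beside 5.29%. Most of these were in CIITA, which held 34 of the 45 CpG dinucleotides in runs higher and 56 of the 71 in runs lower.

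The other genes of the pathway were not alike at the start. The 13 genes for the class II transcription factors and the interferon pathway included RFX5, NFYA, CREB1 and IRF1. In their first 500 bp 0 of 679 CpG dinucleotides were called by Fisher's exact test. Over all protein-coding genes 4.83% were called higher and 8.3% lower. These starts held 21 to 78 CpG dinucleotides compared, beside 5 to 19 in the 7 listed genes, so they are starts of another kind. In RFX5, part of the complex on the X box, the means were 0.113% in OCI-AML3 and 0.216% in OCI-AML5. Among 12 class I genes, with 27 to 49 CpG dinucleotides compared in each, 17 were called higher and 7 lower of 453. No gene of these passed 20 percentage points. All 17 calls higher were in HLA-G, at 68.2% in OCI-AML3 and 56.5% in OCI-AML5 with 14 called higher and 6 lower, and in HLA-F, at 6.91% and 2.60% with 3 called higher. These were named after their values were seen. Of the accessory and lysosomal genes, MARCHF1, a ubiquitin ligase that removes class II molecules from the cell surface, was higher at 81.5% and 54.5%, with 25 of 43 CpG dinucleotides called higher and none lower. LGMN, a lysosomal protease, was lower at 1.06% and 32.9%. Further class II chains were lower in OCI-AML3 in this window. The differences were -15.7 percentage points in HLA-DOA, -17.1 in HLA-DOB, and -16.6 and -16.9 in the paralogs HLA-DQA2 and HLA-DQB2. Each rested on 3 to 13 CpG dinucleotides, and they too were named after their values were seen. By any amount, 1 of the 6 accessory and lysosomal genes and 0 of the 2 paralogs compared were higher. Over the wide TSS windows only IFI30, a lysosomal thiol reductase, passed 20 percentage points, at 36.2% and 56.5%. In the gene bodies the class II paralog HLA-DQA2 did, at 48.6% and 69.6%.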

How the data were processed

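Per the labels and the methods, DNA was spiked with unmethylated lambda DNA, sheared, bisulfite treated and sequenced in pairs, and reads were aligned to hg19 with Bismark and Bowtie 0.12.8. The authors deposited, per CpG dinucleotide, raw counts of methylated and unmethylated calls with the strands added together, without smoothing. Whether duplicate reads were removed is not given in the sources used here. The methylated column was settled from the mitochondrial rows. Deposited positions were those of the G, as checked on chromosomes 5, 6 and 16, and 1 was subtracted to give the C.

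The level of a CpG dinucleotide is its share of methylated calls, and region levels are means over those covered by over 5 reads in each line. Fisher's exact test, two-sided, was adjusted over all 24454751 (Benjamini–Hochberg, 0.05) and tested on simulated data. It compares 2 libraries only. TSSs came from GENCODE 44 lifted to GRCh37, those of 1 gene within 500 bp being merged into clusters. RefSeq starts were placed on GRCh37 by matching their promoter sequence, which succeeded for 8 of the 10 genes, not CIITA or HLA-DRA. All 10 genes are named, with the run of most CpG dinucleotides for each gene and direction, each CIITA cluster, the single CpG dinucleotides 250 bp upstream, and other pathway genes past 20 percentage points. The genes and lists were chosen with earlier results of these data known. Further runs and CpG dinucleotides after the TSS were named after their values were seen. Versions were matplotlib 3.10.9, numba 0.67.0, pandas 2.3.3, scipy 1.17.1, numpy 2.4.6 and Python 3.11.15. Some sequences and genes are not reported here.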

Additional observations from a re-analysis of the deposited data

How the results depend on the processing

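No paired analysis was possible because each line has 1 library, which also leaves no replicate to leave out. The count of called CpG dinucleotides within 2 kb of the TSSs was 148 of 1131 (97 lower and 51 higher). It was 98 of 647 (66 and 32) where only depths between 0.5 and 2 times the median were used, 51 of 445 (36 and 15) for the most upstream TSS of each gene and 69 of 346 (35 and 34) for the canonical TSS. In the bodies it was 346, and 223 outside the TSS windows. No values over the genome are given here for these alternative settings. The counts and medians under them therefore show only how the values of the 10 genes move. The median window difference was -6.60 percentage points with at least 10 reads, -4.58 in the depth band, -5.16 within 1 kb, -1.15 for the most upstream TSS, 0.445 for the canonical TSS and -6.67 for the share of all calls. The median body difference was -5.22, -6.19 and -5.50 under the read minimum, the depth band and the share of all calls, and -7.66 outside the windows. In the depth band 1 gene, HLA-DPB1, had a window lower by more than 20 percentage points. Window differences turned in CD74 (1.15 in the depth band), CIITA (12.0, canonical TSS), HLA-DMA (2.15, canonical), HLA-DMB (0.445, canonical and most upstream), HLA-DPB1 (8.55, canonical and most upstream, and 0.254 by share of calls) and HLA-DRA (3.65 within 1 kb). Body differences turned in HLA-DPA1 (0.492 by share of calls and 2.92 outside the windows) and HLA-DQA1 (-1.84 by share of calls). The cause was not tested. Of the single-gene alternatives in all, 27 of 53 window values and 16 of 33 body values moved by less than their counting interval. By more, without changing direction, 17 and 14 moved. These counts include window values of HLA-DQB1 on at most 4 CpG dinucleotides and body values of HLA-DRB1 on 1. Those say nothing of stability.

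For the first 500 bp, all alternatives were chosen after seeing the data. The number of genes higher by more than 20 percentage points was 3 to 5, with 3 for 250 bp and in the depth band and 5 with at least 10 reads or the RefSeq TSS. The shares of all genes given above hold for the main setting only, so these counts have none beside them. The median difference was 14.8 for 250 bp. CD74 turned to 0.922 for 1000 bp and HLA-DPA1 to 43.0 with the RefSeq TSS. With 1 library per line, depth limits single CpG dinucleotides. HLA-DRB1 and HLA-DQB1 were not compared, and the HLA-DQA1 values rest on few CpG dinucleotides.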

Other observations

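Among CpG dinucleotides of the 10 genes with both neighbours methylated at 80% or more and within 500 bp, 16 of 863 were at 20% or less in OCI-AML3, which is 1.85%, beside 1.92% over the genome. In OCI-AML5 5 of 1188 were, which is 0.421%, beside 1.51%. Of the 16 in OCI-AML3, CIITA held 11 of its 521. HLA-DPA1 held 3 of 57 and HLA-DPB1 3 of 40, in genes that overlap and share CpG dinucleotides. No cause was tested.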
